A study of Lactuca sativa with 53 samples.

Results

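The 100 genes described here varied little in RNA level within each deposited value table, across abiotic stresses and cultivars of lettuce (*Lactuca sativa*). They were chosen by their measured values, and differences in level between the tables did not enter the ranking. A gene was eligible when it was listed in both deposited value tables and its mean lay between 20 and 500 in every one of the 18 groups, which 4257 of 22590 genes met (18.8%), of 24635 genes listed in either table. The standard deviation (SD) of log2(value + 0.5) was taken over the libraries of each table, and the 100 genes with the lowest value of the larger SD were kept from the 4249 eligible genes outside the *AP2/ERF* family. All 100 passed the filter on low values. Every spread below is therefore a description of genes chosen for a low spread, and no test is drawn from it.

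The series holds 53 RNA libraries. Treatments began when the plants, kept at 20 °C until then, were 18 days old. In the cultivar Salinas, 10 groups held 3 libraries each. The group at 0 h was the shared control, and the other groups were given 250 mM NaCl (salt), were held at 34 °C (heat) or were no longer watered (drought), each sampled after 5, 24 and 48 h. In the cultivars PI284702 and UC96US23, together called the cold series, 8 groups held warm-grown plants (0 h) and plants that had spent 4 h, 24 h or 7 d in the cold at 4 °C. By the methods, light was dimmer in the cold than during growth or under the other stresses. Cold and dimmer light therefore cannot be told apart. PI284702 had 2 libraries at 0 h, and every other group had 3. The series holds no untreated group at the later times, so treatment and time since 0 h cannot be told apart. The sample labels give the tissue as aerial tissue and the methods as leaf. The values of PI284702 and UC96US23 are counts per 1000000 reads (CPM), while those of Salinas hold an added scaling factor in each library and are here called scaled CPM. The tables were scaled separately, and as neither unit is per gene length, a higher value does not mean more transcripts of one gene than of another.

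Genes with steady RNA levels serve as the yardstick of expression studies. In quantitative PCR, a target is read against reference genes, and any change in the reference is passed on to the target. In RNA sequencing, some ways of scaling libraries rest in the same way on the bulk of genes being steady. Salt, heat, drought and cold can each change RNA levels in leaves, and AP2/ERF proteins are transcription factors that take part in that response. The gene IDs were not paired with gene products in the tables used here, so the 100 genes are given by ID alone, conventional reference gene families such as actins and tubulins were not looked up among them, and leaf marker genes were not checked.

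Library depth ran from 19144717 to 29521313 reads on genes in Salinas and from 17570370 to 27896716 in the other cultivars. Each of the 100 genes had between 509 and 11468 reads in every Salinas library and between 373 and 9329 in every library of the other cultivars. The sum of scaled CPM differed between groups, from 845077 to 858082 in the control libraries to between 1207464 and 1273638 under salt at 48 h, and every CPM library summed to 1000000. A few libraries stood apart. UC96US23 at 4 h, replicate 2, had the largest deviation of all 53 libraries from its group, a median of 0.189 (log2) over genes, and it held the highest value of the 23 cold-series libraries for 17 of the 100 genes and the lowest for 19. In Salinas, replicates 1 and 2 of salt at 24 h deviated most, by 0.164 and 0.153. Among the 100 genes themselves, heat at 5 h, replicate 1, held the lowest of the 30 Salinas values for 22. Without the UC96US23 library, 75 of the 100 genes were again among the 100 lowest. Without the salt libraries 97 and 96 were, and without the heat library 97.

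Over the 100 genes, the larger SD lay between 0.091 and 0.157 on the log2 scale, with a median of 0.142. The median over all eligible genes was 0.345 and the highest value was 1.49. The larger SD was that of Salinas for 44 of the 100 and that of the cold series for 56. From the lowest to the highest library, the values of the 100 spanned a median of 1.42-fold in Salinas (1.18 to 1.65), against 2.02-fold for eligible genes. In the cold series they also spanned a median of 1.42-fold (1.20 to 1.74), against 2.00-fold. All 100 stayed within 2-fold over the libraries of each table, which 1234 eligible genes did, and 63 stayed within 1.5-fold, which 92 eligible genes did. The median span was 1.40-fold in Salinas without the heat library, 1.42-fold without either salt library, and 1.39-fold in the cold series without the UC96US23 library.

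**Figure D1:**
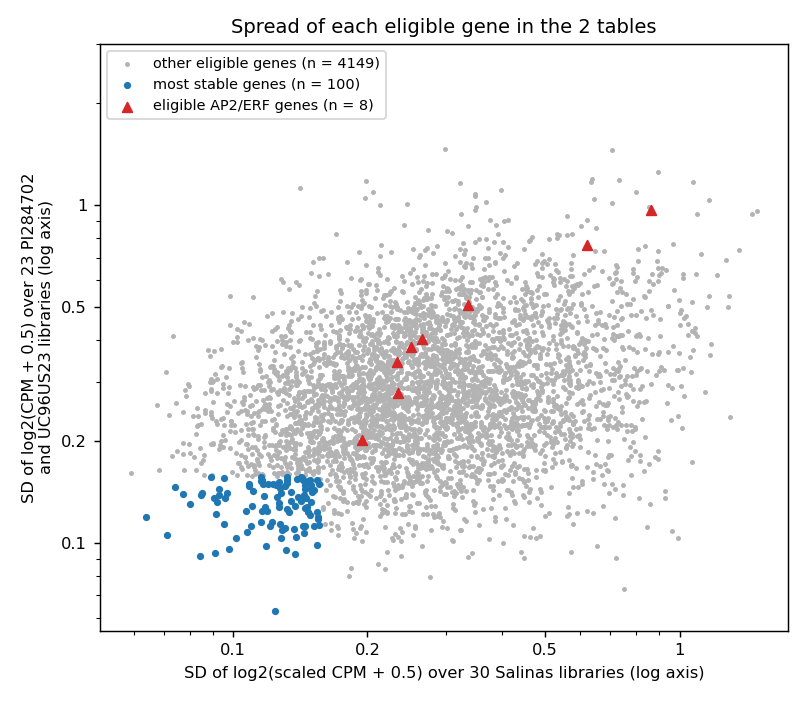
SD of log2(value + 0.5) of each eligible gene over 30 Salinas libraries (x axis) against that over 23 libraries of PI284702 and UC96US23 (y axis), both on log axes. Blue points are the 100 most stable genes, which fill the corner where both SDs are at most 0.157, red triangles are the 8 eligible *AP2/ERF* genes, and grey points are the other eligible genes.

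The gene with the lowest larger SD was *Lsat_1_v5_gn_3_6160.2*, with an SD of 0.084 in Salinas and 0.091 in the cold series. Its 30 Salinas libraries held between 73.7 and 93.0 scaled CPM, with a median of 81.1. Its control libraries held 79.2, 76.5 and 76.2 scaled CPM, and its libraries under heat at 48 h held 87.4, 93.0 and 83.9. All 3 of these heat libraries lay above all 3 controls, and the difference of 0.19 (log2) was its largest from any 0 h group as deposited. Its 23 cold-series libraries held between 39.2 and 48.5 CPM, with a median of 43.7. In PI284702, the 0 h libraries held 40.1 and 46.3 CPM and the 7 d libraries 46.4, 48.4 and 45.0. In UC96US23, the 0 h libraries held 43.2, 44.8 and 45.7 CPM and the 7 d libraries 39.2, 43.7 and 40.1. At 7 d the group mean was thus above that at 0 h in PI284702 and below it in UC96US23, and the groups overlapped in both.

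The second gene, *Lsat_1_v5_gn_5_13581.4*, had an SD of 0.091 in Salinas and 0.093 in the cold series. Its Salinas values ran from 62.0 to 81.7 scaled CPM, with a median of 75.7. The lowest of them was replicate 1 of heat at 5 h, with 62.0 scaled CPM against 76.0 and 75.7 in the other libraries of its group. Without it, the Salinas SD was 0.077. Its cold-series values ran from 48.4 to 59.1 CPM, with a median of 52.4. The PI284702 libraries held 50.1 and 49.5 CPM at 0 h and 57.3, 54.0 and 58.5 at 7 d, without overlap. In UC96US23 the 0 h libraries held 52.2, 58.6 and 54.0 CPM and the 7 d libraries 49.7, 59.1 and 58.2, and these groups overlapped.

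The third gene, *Lsat_1_v5_gn_9_35780.1*, had an SD of 0.098 in Salinas and 0.096 in the cold series. Its Salinas values ran from 163.7 to 220.9 scaled CPM, with a median of 184.9. The highest of them came from salt at 24 h, whose libraries were far apart, with 220.9, 169.8 and 201.9 scaled CPM. Without replicate 1 of that group the Salinas SD was 0.087, and without replicate 2 it was 0.097. In PI284702, its group means were 244.3 ± 13.4 CPM at 0 h (SD, n = 2), 239.2 ± 0.781 at 4 h, 226.9 ± 1.5 at 24 h and 211.2 ± 5.69 at 7 d (SD, n = 3 each). In UC96US23 they were 213.9 ± 6.03, 208.5 ± 7.38, 208.9 ± 8.58 and 206.0 ± 9.09 CPM at the same times (SD, n = 3 each). Every PI284702 library at 0 h, 4 h and 24 h lay above every UC96US23 library. Within PI284702 all 7 d libraries were below both 0 h libraries, while every UC96US23 group overlapped its 0 h group.

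**Figure D2:**
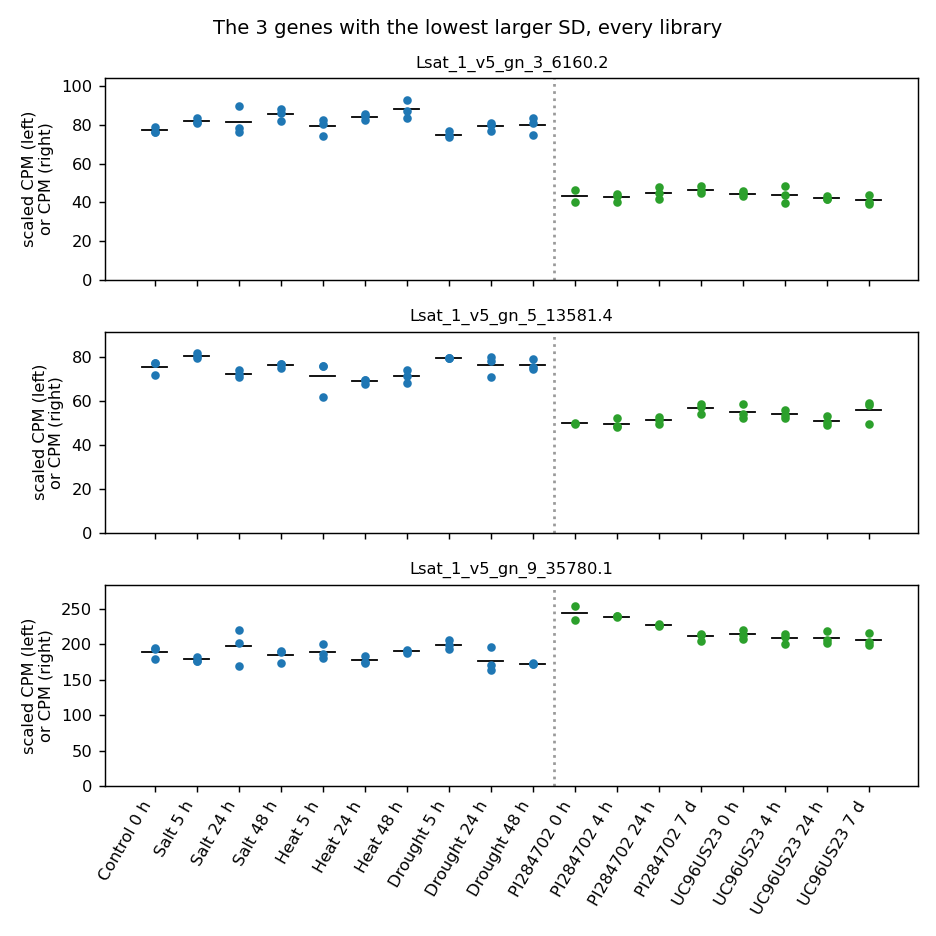
Values of the 3 genes with the lowest larger SD in every library, as scaled CPM in Salinas (blue, left of the dotted line) and as CPM in PI284702 and UC96US23 (green, right of it), with group means as black bars and axes starting at 0. Levels left and right of the line come from tables scaled separately, and within each side the points stay within 1.35-fold of each other for all 3 genes.

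The genes ranked 4 to 10 had a larger SD between 0.104 and 0.119. In order they were *Lsat_1_v5_gn_7_108961.1*, *Lsat_1_v5_gn_2_1961.3*, *Lsat_1_v5_gn_3_132801.1*, *Lsat_1_v5_gn_3_98161.3*, *Lsat_1_v5_gn_3_22060.1*, *Lsat_1_v5_gn_7_19041.1* and *Lsat_1_v5_gn_7_91601.1*. Their largest differences from a 0 h group, as deposited, lay between 0.19 and 0.29 in size (log2). *Lsat_1_v5_gn_3_132801.1* showed that a low SD can hold an ordered pattern. Its control libraries held 112.3, 110.2 and 112.7 scaled CPM. Under heat the libraries held 118.9, 125.6 and 140.8 at 5 h, 130.7, 130.6 and 129.3 at 24 h, and 132.6, 136.0 and 142.9 at 48 h. Every heat library was above every control. So was every salt library, with 129.6, 134.0 and 136.4 scaled CPM at 48 h, and every drought library at 24 h and 48 h, so that drought at 5 h, with 110.0, 109.9 and 113.6, was the treated group that overlapped the control. This order is that of the deposited scaling. With each library rescaled to sum to 1000000, the mean log2 value of this gene under salt at 48 h was below the control. *Lsat_1_v5_gn_7_19041.1* lay on both sides of its control, which held 195.3, 195.9 and 199.7 scaled CPM. Its libraries held 230.0, 225.9 and 218.8 under drought at 5 h, all above the control, and 172.8, 173.7 and 171.1 under heat at 24 h, all below it. Heat at 48 h and drought at 24 h and 48 h were also wholly below the control. The salt libraries at 24 h held 220.2, 174.3 and 200.6 and spanned most of that distance. In UC96US23 at 4 h its libraries held 161.4, 207.3 and 154.2 CPM. The second value belongs to the library that stood apart, and without it the cold-series SD of this gene fell from 0.115 to 0.082.

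By deposited value, the mean was largest among the 100 in *Lsat_1_v5_gn_8_116260.1*, ranked 41, with 262.3 to 379.2 scaled CPM in Salinas and 294.2 to 396.0 CPM in the cold series. It had 332.0, 334.2 and 345.4 scaled CPM in the control, 375.0, 379.2 and 361.3 under drought at 5 h, and 286.0, 284.8 and 262.3 under heat at 5 h. These 3 groups did not overlap. It was smallest in *Lsat_1_v5_gn_9_108541.1*, ranked 82, with 25.4 to 37.5 scaled CPM and 21.6 to 30.9 CPM. It had 32.3, 32.7 and 35.3 scaled CPM in the control and 26.2, 26.0 and 25.4 under heat at 24 h, a difference of -0.36 (log2) without overlap.

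As deposited, the largest difference from a 0 h group among the 100 was 0.47 (log2), in *Lsat_1_v5_gn_2_123481.3*, ranked 69, under salt at 48 h. The direction depends on the scaling. With each Salinas library rescaled to sum to 1000000, all 100 genes, this one included, had a lower mean log2 value there than in the control. Its libraries held 28.2, 27.1 and 27.6 scaled CPM in the control and 37.5, 38.5 and 39.3 under salt at 48 h. They held 36.2, 34.8 and 35.2 under heat at 48 h and 38.2, 33.2 and 35.4 under drought at 48 h. All 9 libraries at 48 h were above all 3 controls. In UC96US23 the gene had 20.5, 21.9 and 20.9 CPM at 0 h and 27.3, 27.1 and 30.2 at 24 h of cold, again without overlap. In PI284702 at 24 h it had 25.4, 22.2 and 22.2 CPM, which overlapped its 0 h values of 20.1 and 23.2. The SD within groups of this gene was 0.054 in Salinas, and that of its group means was 0.148.

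At the edge of the list, the larger SD changed little from gene to gene. It was 0.1568 for both *Lsat_1_v5_gn_6_17181.2* and *Lsat_1_v5_gn_8_46521.1*, ranked 99 and 100. It was 0.1569 for *Lsat_1_v5_gn_1_45101.1* and 0.1572 for *Lsat_1_v5_gn_8_117740.1*, ranked 101 and 102. The gene at rank 102 held 45.4 CPM in the UC96US23 library at 4 h that stood apart, against 32.4 and 32.2 in the other libraries of the group, and without that library its cold-series SD was 0.124.

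Replicates of a group spread less than group means did for most of the 100 genes. In Salinas, the median SD within groups was 0.070 over the 100 and 0.095 over eligible genes, and the median SD of group means was 0.116 and 0.263. In the cold series, the corresponding medians were 0.080 and 0.107 within groups, and 0.119 and 0.267 between them. Group means spread more than replicates for 85 of the 100 in Salinas and for 73 in the cold series. The ratio of these SDs had a median of 1.60 and 1.41 over the 100, against 2.73 and 2.51 over eligible genes. Its 10th percentile over eligible genes was 1.47 and 1.29, so the same held for a larger share of them. Counting of reads alone would give a median SD of 0.034 in Salinas and 0.044 in the cold series. The SD within groups was above this level for all 100 genes in both tables, by a median of 1.99 times in Salinas and 1.88 times in the cold series. Over eligible genes the medians were 2.68 and 2.53 times.

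In the deposited values, the differences of the 100 from 0 h stayed within a narrow range in every group. In Salinas, the difference from the control lay between -0.37 and 0.47 (log2) for all 100 genes under salt at 48 h, the group in which eligible genes spread most, with -0.92 and 1.16 as their 10th and 90th percentiles. Under heat at 48 h it lay between -0.40 and 0.35, and under drought at 48 h between -0.29 and 0.36. After 7 d of cold it lay between -0.29 and 0.37 in PI284702 and between -0.37 and 0.32 in UC96US23. Between the cultivars at 0 h, UC96US23 minus PI284702 lay between -0.24 and 0.28. For 7 of the 100, the largest difference from any 0 h group was under 0.2.

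**Figure D3:**
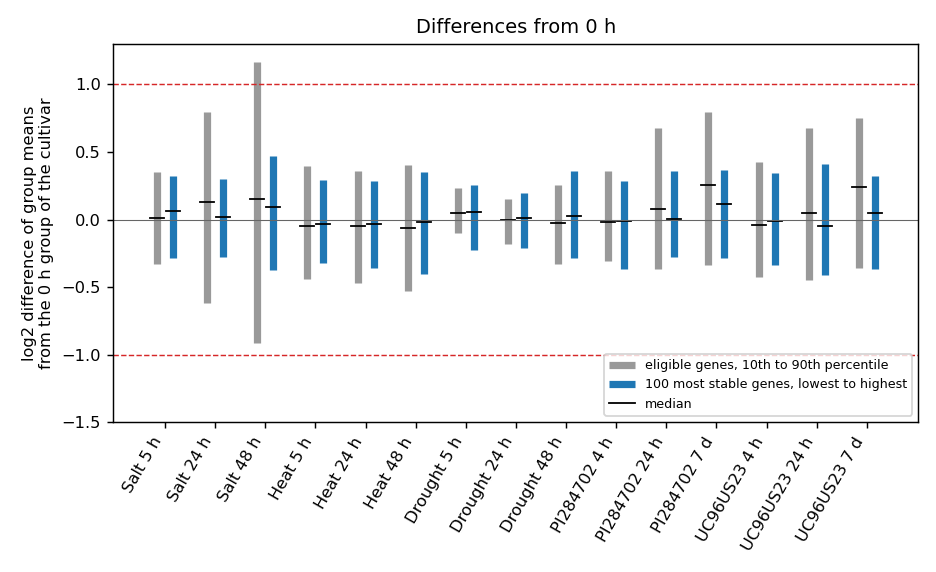
Log2 difference of group means from the 0 h group of the same cultivar (y axis) for 15 groups (x axis), as the lowest to highest value of the 100 most stable genes (blue) and the 10th to 90th percentile of eligible genes (grey), with medians in black. Dashed red lines mark a 2-fold change, which no blue bar reaches, the longest running from -0.37 to 0.47 under salt at 48 h.

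With the thresholds of the study's methods, which are 2-fold and 0.01 for the adjusted p, 0 of the 100 were called in each of 19 comparisons by limma fitted across all genes with Benjamini-Hochberg adjustment, and edgeR on the recovered reads also called 0. Of all genes tested, 49.7% were called in any of the 9 Salinas comparisons and 25% in any of the 6 cold comparisons, and of eligible genes 24.1% and 12.1%. By comparison, the share of all genes called was 6.39%, 29.2% and 42.8% under salt at 5 h, 24 h and 48 h, 6.03%, 10.4% and 14.1% under heat, and 0.779%, 0.194% and 3.22% under drought. At 4 h, 24 h and 7 d of cold it was 4.11%, 9.73% and 9.9% in PI284702 and 6.63%, 12.2% and 9.07% in UC96US23. The comparisons within a table share their 0 h groups, and as the rule used the same libraries, nothing is read from the 0. At an unadjusted p under 0.05, with no fold limit, limma listed between 11 of the 100 (drought at 24 h, 14.6% of all genes and 18.2% of eligible genes) and 55 (salt at 48 h, 81.7% and 83.2%) in Salinas and between 22 (PI284702 at 4 h, 30.6% and 37.5%) and 39 (PI284702 at 7 d, 51.3% and 67.4%) in the cold comparisons. It listed 17 between the cultivars at 0 h, against 37.1% of all genes, of which 9.9% were called at the thresholds. For the difference of the cold response between cultivars it listed 7, 14 and 8 at 4 h, 24 h and 7 d, against 16.5%, 16.1% and 15.9% of all genes, of which 0.137%, 0.661% and 0.674% were called at the thresholds. With the fold limit removed, 71 of the 100 were called in at least 1 Salinas comparison, against 90.5% of all genes tested and 94.2% of eligible genes, and 38 in at least 1 cold comparison, against 66.1% and 83.1%. The genes were chosen for a low SD over these same libraries, so a lower share follows from the choice and nothing is read from these counts either.

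The median difference from 0 h over the 100, as deposited, was small in every group. Under salt it was 0.06, 0.02 and 0.09 (log2) at 5 h, 24 h and 48 h, where the median of eligible genes was 0.01, 0.13 and 0.15. Under heat it was -0.03, -0.03 and -0.02, against -0.05, -0.05 and -0.06, and under drought 0.06, 0.01 and 0.02, against 0.05, -0.01 and -0.02. In the cold it was -0.01, 0.01 and 0.11 at 4 h, 24 h and 7 d in PI284702, against -0.02, 0.08 and 0.26. In UC96US23 it was -0.01, -0.05 and 0.05, against -0.04, 0.05 and 0.24.

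The sign of the median at 7 d turned with the scaling. In CPM, the median difference of all genes tested at 7 d was 0.15 in PI284702 and 0.09 in UC96US23, and with TMM factors it was 0.00 in both. With those factors the median of the 100 was -0.08 in PI284702 and -0.08 in UC96US23, and with libraries centred on the median gene it was -0.10 and -0.09. On each of these scales the median of the 100 at 7 d lay below that of all genes and of eligible genes. Under salt at 48 h, the median of the 100 was 0.02 with centred libraries and 0.03 with TMM factors.

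As deposited, the 100 genes in Salinas reached their highest group mean most often under salt at 48 h, as eligible genes did. The group mean was highest under salt at 48 h for 36 of the 100 (41.4% of eligible genes) and lowest under heat for 19 at 5 h (20.2%), 16 at 24 h (7.35%) and 17 at 48 h (12.7%). Salt at 48 h was the lowest group for 9 of the 100, against 23.9% of eligible genes. With each library rescaled to sum to 1000000, all 100 had a lower mean log2 value there than in the control. On that scale it was thus the highest group for none of them. In the cold series, in CPM, the mean was highest in PI284702 at 7 d for 29 (29.2%). It was lowest in UC96US23 at 24 h for 22 (12.8%) and in PI284702 at 4 h for 20 (15.5%).

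As deposited, the median of the 100 in a library moved little. It lay 0.09, 0.10 and 0.09 (log2) above each gene's own mean in the 3 libraries of salt at 48 h, and 0.12, 0.04 and 0.02 below it in those of heat at 5 h. When each Salinas library was rescaled to sum to 1000000, the salt libraries at 48 h fell to -0.37, -0.39 and -0.32, and those at 24 h to -0.09, -0.20 and -0.18. On that scale every one of the 100 was lower under salt at 48 h than in the control, with a median of -0.45, and the median of all genes tested was -0.51. As deposited, 74 of the 100 were higher there than in the control. On the rescaled values, 28 of the 100 were again among the 100 lowest.

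**Figure D4:**
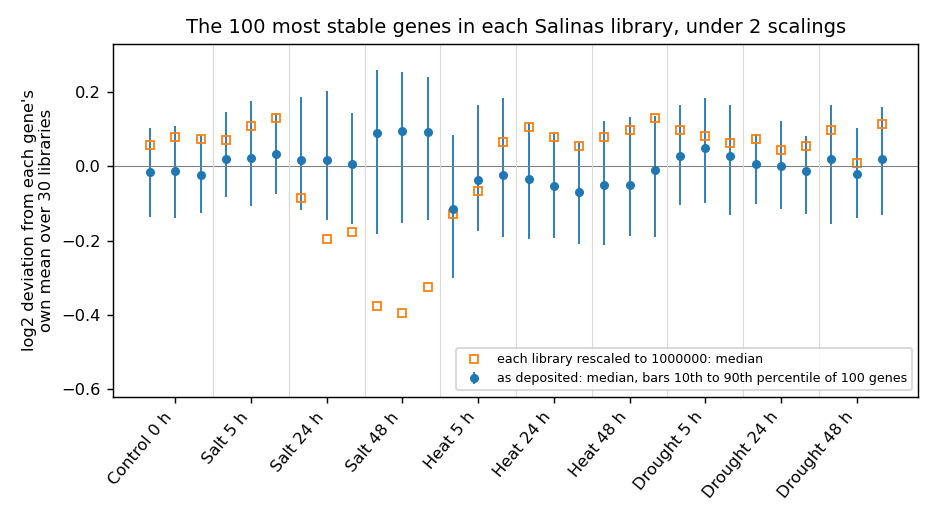
Log2 deviation of the 100 most stable genes from their own mean over 30 Salinas libraries (y axis), by library and group (x axis). Blue points and bars are the median and the 10th to 90th percentile as deposited, between -0.12 and 0.10 for the median, and orange squares are the median after each library was rescaled to 1000000, which falls to -0.39 under salt at 48 h.

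Averaging over the genes narrowed the spread. The mean log2 value of the first 3 genes had an SD of 0.043 over the Salinas libraries and spanned 1.14-fold, that of the first 10 spanned 1.14-fold, and that of all 100 had an SD of 0.041 and also spanned 1.14-fold, against 1.26-fold for the first gene alone. In the cold series the mean of the first 3 spanned 1.11-fold, that of the first 10 spanned 1.16-fold and that of all 100 spanned 1.11-fold, against 1.23-fold for the first gene alone. After rescaling to 1000000, the means of the first 3, the first 10 and all 100 spanned 1.59-fold, 1.56-fold and 1.46-fold in Salinas. Each was lowest under salt at 48 h. On that scale the first gene alone spanned 1.67-fold. The genes were chosen on these libraries, so these spans are descriptions.

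As deposited, the values of the 100 did not rise and fall as a single set, although some pairs moved closely together or in opposition. Over the 30 Salinas libraries, the correlation between pairs of them had a median of 0.11 and ran from -0.85 to 0.93, and over the 23 cold-series libraries it had a median of 0.11 and ran from -0.84 to 0.90. The pairs share libraries and their scaling. The first principal component held 32.3% of their variance in Salinas and 25% in the cold series. With each Salinas library rescaled to sum to 1000000, all 100 genes were lower under salt at 48 h than in the control. Neither the correlations nor the component were computed on that scale.

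A low spread in one table went with a lower spread in the other, but loosely. Across the 4257 eligible genes, which are not independent replicates, the SDs in the 2 tables had a Pearson correlation of 0.27 and a Spearman correlation of 0.25. Of the 100 genes with the lowest SD in Salinas alone, 71 lay below the eligible median in the cold series, with a median SD there of 0.224 against 0.272, and 5 were among the 100 lowest there. Of the 100 with the lowest SD in the cold series alone, 63 lay below the eligible median in Salinas, with a median SD of 0.224 against 0.269, and 5 were among the 100 lowest. The 100 lowest are 2.35% of eligible genes. Of the 100 genes chosen by both tables, 20 were on the first of these lists and 29 on the second.

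Of the *AP2/ERF* family, 8 genes were eligible by level. None of them would have entered the list, which holds 2.35% of eligible genes, so nothing is read from their absence. Over all eligible genes the median larger SD was 0.345, against 0.391 over these 8. The lowest larger SD among them was 0.202, at rank 453 of 4257, in *LsERF129* (*Lsat_1_v5_gn_9_93200.1*), placed on linkage group 9 at 144093527 to 144094186 of the version 8 genome. It held 25.9 to 40.7 scaled CPM in Salinas and 20.8 to 35.8 CPM in the cold series, and its largest difference was 0.51 (log2), under salt at 48 h. The highest was 0.966, at rank 4187, in *LsRAV.3*, a gene of the RAV subfamily, whose proteins carry a B3 domain beside the AP2 domain. Its values ran from 27.1 to 223.7 scaled CPM and from 24.2 to 159.3 CPM, and its mean in PI284702 at 4 h of cold was 2.61 (log2) above that at 0 h. *LsRAV.3* was chosen after its values were seen.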

How the data were processed

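The authors aligned reads with STAR 2.5.2 to the lettuce genome version 8 and counted them per gene with featureCounts, and edgeR is named in the submitters' processing notes. For Salinas the authors deposited a signal per gene, which is CPM of a scaled library size, and the scaling method is not given in the sources used here. The fitted design had assumed plain CPM, and its log-scale test was kept. The cold-series table holds CPM deposited by the authors, summing to 1000000 in each library. Whole reads were recovered for 100% of the values above 0 in both (tolerance 0.001 reads) by division by the value of 1 read, between 0.0300 and 0.0619 in Salinas and between 0.0358 and 0.0569 in the cold series. These recovered reads gave depths and the edgeR alternative.

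The filter kept genes that reached 0.5 in 2 or more libraries, 23231 in Salinas and 23443 in the cold series. On the scale log2(value + 0.5), limma 3.58.1 (R 4.3.3) was fitted (trend, group means, each table in its own fit), and p-values were adjusted by Benjamini-Hochberg in each comparison. The ranking, the summaries and the plots used pandas 2.3.3, numpy 2.4.6 and matplotlib 3.10.9 under Python 3.11.15. The fits were tested on simulated data. Replicates of a group differed by more than counting noise, with a chi-square per gene between 3.60 and 73.7. The methods call the Salinas libraries biological replicates. For the cold series nothing states separate plants, so p-values there measure the spread between these samples, which may be technical.

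The genes named are the 10 with the lowest larger SD, those with the largest and smallest mean level, that with the largest difference from its 0 h group, the 2 on each side of rank 100, and the *AP2/ERF* gene with the lowest larger SD. The *AP2/ERF* genes were matched by locus, and 158 were listed in Salinas and 144 in the cold series. The members and lists were chosen with earlier results of these data known. Alternatives were other pseudocounts, filters, scalings, measures of spread, level limits, groups, a replicate block, edgeR 4.0.16 with TMM factors, and leaving out each library.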

Additional observations from a re-analysis of the deposited data

How the results depend on the processing

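Of the 100 genes, 28 were again among the 100 lowest when each Salinas library was rescaled to 1000000, 56 with libraries centred on the median gene, 56 with TMM factors, 36 by the median absolute deviation, 20 by the Salinas table alone, 29 by the cold table alone and 45 without the Salinas salt groups. Under rescaling, centring and TMM together 18 were kept, and 0 of the 10 lowest were. Under centring and TMM 53 were kept, among them most of the 10 lowest, and 33 were kept under none of the 3. Between 75 (without UC96US23 at 4 h, replicate 2) and 99 were kept when a library was left out, and between 67 and 98 under the other pseudocounts, level limits, range and SD of group means. Rescaling moved the median larger SD from 0.142 to 0.186 and the median SD of Salinas group means from 0.116 to 0.178. Calls with the fold limit stayed at 0 in every alternative run. Without the fold limit, the count called in any cold comparison was 25 when only the groups compared entered the fit, against 38, and leaving out a library gave between 57 and 76 in Salinas and between 30 and 48 in the cold series, the 48 without UC96US23 at 4 h, replicate 2. Counts per comparison without the fold limit are not given, and 66 of 642 of them under alternatives differed by more than 1.5 times. With the replicate number as a block, 69 were called in any Salinas comparison (against 71) and 34 in any cold comparison (against 38). In Salinas, deviations of same-numbered libraries correlated by between -0.28 and 0.32, with a mean of -0.013, against 0.007 for differently numbered libraries. In the cold series they correlated by between -0.20 and 0.22, with a mean of 0.029, against -0.014. Correlations above 0.1 were found in 23 of 135 same-numbered and 61 of 270 other pairs in Salinas. In the cold series they were found in 16 of 77 and 13 of 154. These values do not settle whether the numbers pair the samples. Depth limits some of these spreads, as for *Lsat_1_v5_gn_7_91601.1* in the cold series, with a counting SD of 0.067 against a total SD of 0.098.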

Other observations

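Of the 100 genes, 79 had a lower mean in CPM in the cold series than in scaled CPM in Salinas, with a median difference of -0.41 (log2) and a range from -1.08 to 0.45. Of eligible genes 59.8% were lower, with a median of -0.16. With Salinas rescaled to 1000000, the medians were -0.56 and -0.30. The tables were scaled separately and hold different cultivars, so cultivar, experiment and scaling cannot be told apart.

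The first number in a gene ID matched the linkage group given for all but 2 of the *AP2/ERF* genes. By that number the 100 genes were spread over the genome, with 13 each on linkage groups 4, 5 and 8 (12.7%, 14.4% and 12.3% of eligible genes), 12 each on 6 and 9 (9.68% and 10.9%), and 5 on linkage group 2 (11%).

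TMM factors computed on the recovered reads lay between 0.915 and 1.11 in the cold series, and the deposited CPM do not hold them. In Salinas they lay between 0.732 and 1.10, and the factor that the deposited sums imply was between 1.07 and 1.13 times the TMM factor in every library.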
